A study of Mus musculus with 4 samples.

Results

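Cx3cr1, Zeb2, Klrg1, S1pr5, Tbx21, Eomes and Itgam, 7 of the 31053 genes in the deposited feature table, are genes of the maturation of natural killer (NK) cells and cytotoxic T cells into terminal effectors. They were taken by gene symbol, each of the 7 symbols matched 1 entry, and they were read in the NK-like and T cell clusters of all 4 libraries. Their Ensembl identifiers in the files are ENSMUSG00000052336 (Cx3cr1), ENSMUSG00000026872 (Zeb2), ENSMUSG00000030114 (Klrg1), ENSMUSG00000045087 (S1pr5), ENSMUSG00000001444 (Tbx21), ENSMUSG00000032446 (Eomes) and ENSMUSG00000030786 (Itgam). Those clusters held 1977 of 5659 cells kept with WT tumours and IgG, 2245 of 6187 with WT tumours and anti-PD-1, 1286 of 5919 with KO tumours and IgG, and 1395 of 5595 with KO tumours and anti-PD-1. The set was selected on results of these libraries: the measured values behind it include the Cx3cr1 level of NK-like cells in WT anti-PD-1 and WT IgG. The values of that comparison are therefore a description.

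The libraries came from lungs of B6 mice that had been injected intravenously with KP tumour cells, a mouse lung cancer line. The tumour cells were either wild type (WT) or knocked out (KO) for Asf1a, a histone chaperone gene, and the knockout is a property of the injected cells. Mice received an isotype IgG or the anti-PD-1 antibody clone 29F.1A12 at 200 µg per mouse, 3 times per week for 1 week. Whole perfused lung was digested, live cells were sorted by DAPI exclusion and libraries were made with a 10x Genomics 3′ kit, which reads transcript ends. Each combination of tumour genotype and antibody gave 1 library, and the number of mice behind a library is not stated in the labels. Nothing below measures the spread between mice, no test between groups was possible, and every interval is a 95% interval for counting error only.

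Mature NK cells and effector CD8 T cells lose precursor features as they gain cytotoxic proteins and receptors for life in the blood. T-bet, encoded by Tbx21, and Eomes are related T-box factors. Eomes is needed in NK cell development and in memory T cells, and T-bet drives terminal maturation. ZEB2, a zinc finger repressor that binds E-boxes, acts with T-bet in the last maturation step. CX3CR1, the fractalkine receptor, and S1PR5, a sphingosine-1-phosphate receptor, guide mature cells through blood vessels. KLRG1 is an inhibitory receptor for cadherins, and Itgam encodes CD11b, the integrin chain used to stage mouse NK cell maturation. Monocytes and macrophages use several of the same genes.

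The promoters of the central genes are printed because Tbx21 and Zeb2 encode the factors whose DNA letters can be looked for in them. RefSeq (build GRCm38.p6) gave 9 windows of 250 bases ending at a transcription start for 6 of the members, and Klrg1 had none. The core of a T-box site, GGTGTG, and an E-box, CAGGTG, were searched on both strands, so that their reverse complements also count. Of 32851 windows of this length 16.3% held the first and 17.2% the second, and 1.54% held CAGGTGTG, in which they overlap. Matches are in capitals, and each sequence runs 5′ to 3′ towards the start on the minus strand. The Zeb2 window shown is 1 of 4, and its match begins 137 bases before the start. T-box letters were in 3 of the 4 windows but at 2 places, because the window shown overlaps another that holds the same match. The Tbx21 match, an E-box, begins 196 bases before its start. No window of Cx3cr1, S1pr5, Eomes or Itgam held either string of letters, which says only that the letters are not in these bases.
Cx3cr1, chr9:120068297-120068546: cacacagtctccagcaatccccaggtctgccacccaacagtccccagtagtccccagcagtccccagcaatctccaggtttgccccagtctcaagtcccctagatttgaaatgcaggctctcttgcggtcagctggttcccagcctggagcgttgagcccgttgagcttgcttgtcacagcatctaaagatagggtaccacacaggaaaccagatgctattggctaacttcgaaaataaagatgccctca
Zeb2, chr2:45113280-45113529: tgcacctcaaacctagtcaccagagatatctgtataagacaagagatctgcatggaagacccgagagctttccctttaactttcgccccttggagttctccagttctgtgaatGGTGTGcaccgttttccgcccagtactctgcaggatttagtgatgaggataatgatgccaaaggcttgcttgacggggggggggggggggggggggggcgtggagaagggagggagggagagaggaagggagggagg
Tbx21, chr11:97115332-97115581: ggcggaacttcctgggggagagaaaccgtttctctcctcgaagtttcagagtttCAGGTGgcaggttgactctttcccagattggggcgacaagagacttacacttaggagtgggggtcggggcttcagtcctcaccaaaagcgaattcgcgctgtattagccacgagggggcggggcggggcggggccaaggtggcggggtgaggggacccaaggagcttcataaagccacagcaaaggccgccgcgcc

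The libraries held 16078095 to 22506737 UMIs, and the KO libraries were shallower. The median cell kept had 2026 UMIs in WT IgG, 1881 in WT anti-PD-1, 1220 in KO IgG and 1339 in KO anti-PD-1. Asf1a in the epithelial or tumour class was 32.1 and 34.1 CPM in the WT libraries and 11.1 and 9.96 CPM in the KO libraries, in the order IgG and anti-PD-1. Levels are counts per 1e+06 UMIs of a cell class (CPM). The NK-like class held 287, 317, 289 and 356 cells in the order of WT tumours with IgG and with anti-PD-1, then KO tumours with IgG and with anti-PD-1, which is kept below wherever 4 values follow each other. Its markers Ncr1 (302 to 383 CPM) and Klrb1c (568 to 640 CPM) set it apart from the CD8 T-like class, where they were 0 to 7.16 and 0 to 14.3 CPM. Cd3e was 13.6 to 29.9 CPM in it, against 415 to 593 CPM in the CD8 T-like class. Whether a barcode occurs in more than 1 library was not counted, because the deposited barcode list fits 1 library.

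Among classes with at least 30 cells in every library, Cx3cr1 was read most in monocytes, at 94.7 CPM over the 4 libraries together (37.1 to 138 by library). The CD8 T-like class followed at 59.0 CPM (54.4 to 64.4), macrophages at 57.4 CPM (34.6 to 75.4) and NK-like cells at 35.2 CPM (17.2 to 61.2). The Penk-led CD4 T-like class, named like the other clusters by a leading gene, stood at 34.7 CPM (12.9 to 47.4). These ranges overlapped from each class to the next, so the order within this group of classes was not larger than the spread over libraries. Naive T-like cells, which fell short of that limit with 27 cells in KO anti-PD-1, held 3 UMIs in 958 cells or 1.55 CPM (0.319 to 4.52). That interval overlapped those of the Cd40lg-led CD4 T-like class at 4.01 CPM and the Ly6c2-led T class at 4.61 CPM. Of NK-like cells 6.08% held a Cx3cr1 UMI, and of CD8 T-like cells 8.98%, against 0.313% of naive T-like cells, whose median depths of 1231 to 2309.5 UMIs compare with 1454.5 to 2299 in NK-like cells.

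Zeb2 was mainly a myeloid gene in these lungs, with 291 CPM in monocytes (207 to 348), 245 CPM in macrophages (166 to 276) and 177 CPM in plasmacytoid dendritic cells (136 to 202). NK-like cells were the highest lymphocyte class, at 115 CPM (79.3 to 178). The Penk-led CD4 T-like class stood at 72.8 CPM (45.1 to 94.8), B cells at 68.4 CPM (55.5 to 80.8) and the CD8 T-like class at 54.3 CPM (42.4 to 64.4). The NK-like range overlapped those of the Penk-led and B cell classes and lay above that of the CD8 T-like class. Naive T-like cells held 5 UMIs in 958 cells, or 2.58 CPM. Zeb2os, an antisense gene at the Zeb2 locus, gave 2.60 to 6.62 CPM in NK-like cells, and no source at hand says whether counting used the strand.

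The other members separated NK-like cells from T cells more sharply. S1pr5 was 43.8 CPM in NK-like cells (33.1 to 56.0), 9.20 CPM in monocytes (3.93 to 13.1) and at most 7.06 CPM in any library of the CD8 T-like class. Tbx21 was 104 CPM in NK-like cells (93.6 to 122) and 42.4 CPM in the next class, gamma-delta T-like cells (17.6 to 55.3). Eomes was 193 CPM in NK-like cells (151 to 236) and 66.8 CPM in the CD8 T-like class (40.03 to 85.9). For these 3 genes no library of the second class reached the NK-like range. Itgam was 341 CPM in neutrophils (317 to 384), 247 CPM in monocytes (224 to 290) and 99.3 CPM in NK-like cells (70.1 to 135), with 10.2 CPM in the CD8 T-like class.

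Klrg1 behaved differently from the other receptors. Its highest class was regulatory T-like cells, marked by Foxp3, at 161 CPM (104 to 235), with NK-like cells at 79.4 CPM (54.3 to 108) and the CD8 T-like class at 5.08 CPM (3.402 to 11.8). The regulatory T-like and NK-like ranges overlapped at their ends. In the CD8 T-like class 12 of 1359 cells held a Klrg1 UMI, beside 122 cells with a Cx3cr1 UMI.

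**Figure D1:**
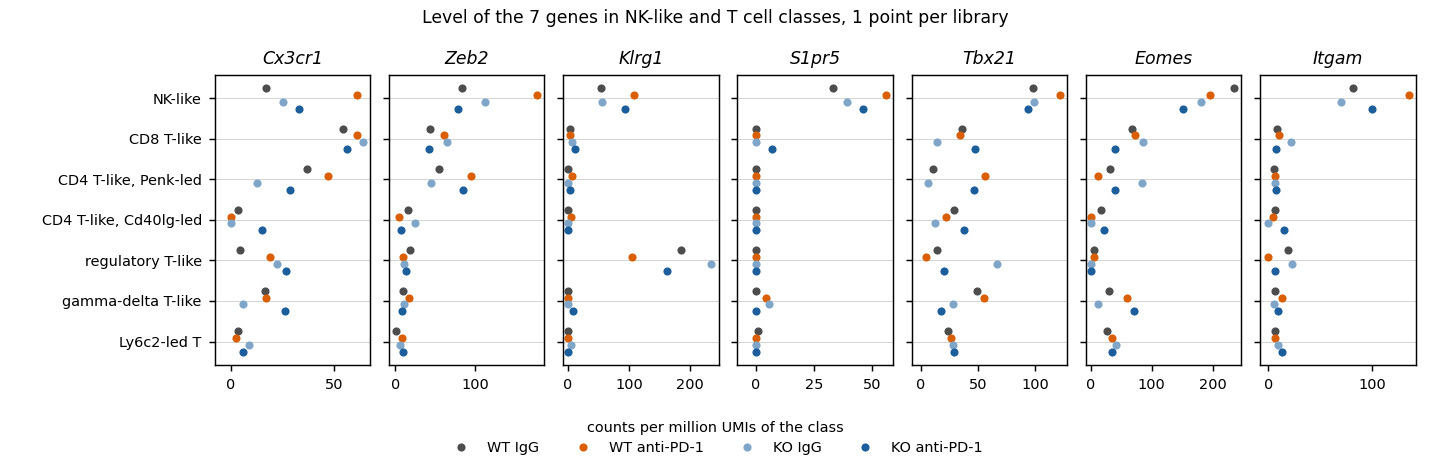
Level of each of the 7 genes (CPM, linear axis, 1 axis per gene) in the NK-like class and 6 T cell classes; each point is 1 library. S1pr5, Tbx21, Eomes and Itgam are highest in the NK-like row, Klrg1 is high in the NK-like and regulatory T-like rows, and Cx3cr1 is read in NK-like, CD8 T-like and Penk-led CD4 T-like cells alike.

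In NK-like cells of mice with WT tumours, the anti-PD-1 library had higher levels of the 4 receptors and of Zeb2. Its Eomes level was lower, but with an interval that overlapped that of WT IgG. The makeup of the class differed as well. Cma1-led cells, a sub-cluster of NK-like cells that held 77 of the 94 Cx3cr1 UMIs, were 34.5%, 46.1%, 26.6% and 43.3% of NK-like cells, or 1.34 times (1.03 to 1.74) the IgG share with WT tumours and 1.62 times (1.23 to 2.16) with KO tumours. Levels over the whole class therefore compare libraries with unequal shares of these cells, and values within them are given further on.

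Cx3cr1 was 17.2 CPM in WT IgG (9.16 to 29.4, 13 UMIs), 61.2 in WT anti-PD-1 (44.9 to 81.3, 47 UMIs), 25.3 in KO IgG (13.5 to 43.3, 13 UMIs) and 33.3 in KO anti-PD-1 (20.6 to 50.9, 21 UMIs). WT anti-PD-1 was the highest library, and its interval did not meet those of the IgG libraries. The ratio of WT anti-PD-1 to WT IgG was 3.56 (1.89 to 7.16). Macrophage, neutrophil, B cell or epithelial marker UMIs occurred in 26.6% to 34.5% of NK-like cells, and 23 of the 47 Cx3cr1 UMIs of WT anti-PD-1 lay in such cells, against 2 of 13 in WT IgG. Without those cells the ratio was 2.10 (0.989 to 4.74), from 49.3 and 23.5 CPM. The summed macrophage marker list, 6 to 8 of whose 8 genes were detected, was 337 CPM in WT anti-PD-1 and 374 to 420 CPM in the other libraries. Of the monocyte list 4 to 6 of 7 genes were detected, and Vcan or Treml4 or both were at 0 in each library. Its sum was 718 to 937 CPM. Ly6c2 and Ccr2 on that list are leading genes of NK-like sub-clusters, so the sum does not gauge monocyte RNA alone. The part of other cell types' RNA in the Cx3cr1 difference was not tested.

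Zeb2 had the second largest difference with the antibody in WT tumours. Its level was 83.4 CPM in WT IgG (64.1 to 107, 63 UMIs), 178 in WT anti-PD-1 (150 to 211, 137 UMIs), 113 in KO IgG (85.7 to 146, 58 UMIs) and 79.3 in KO anti-PD-1 (58.8 to 105, 50 UMIs). WT anti-PD-1 again stood above the other 3 libraries, whose intervals overlapped. The ratio of WT anti-PD-1 to WT IgG was 2.14 (1.58 to 2.93), and 2.37 (1.63 to 3.49) in cells without another type's marker. With KO tumours the ratio was 0.70 (0.47 to 1.04), and under anti-PD-1 the KO library was 0.44 times the WT library (0.32 to 0.62).

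Klrg1, Cx3cr1, Itgam and S1pr5 had ratios of anti-PD-1 to IgG above 1 in both tumour genotypes, and for Klrg1 both intervals also lay above 1. Klrg1 was 54.3 CPM in WT IgG (41 UMIs), 108 in WT anti-PD-1 (83), 56.4 in KO IgG (29) and 93.6 in KO anti-PD-1 (59). Both anti-PD-1 libraries lay above both IgG libraries, with ratios of 1.99 (1.35 to 2.97) for WT and 1.66 (1.05 to 2.68) for KO tumours. Within Cma1-led cells the KO ratio was 0.90 (0.545 to 1.504). Itgam was also higher in both anti-PD-1 libraries than in both IgG libraries, at 82.05, 135, 70.1 and 99.9 CPM (62, 104, 36 and 63 UMIs). Its ratio was 1.65 (1.19 to 2.30) with WT tumours, and the interval with KO tumours included 1 (1.43, 0.93 to 2.21). S1pr5 was 33.1, 56.0, 38.9 and 46.0 CPM (25, 43, 20 and 29 UMIs), with ratios of 1.69 (1.01 to 2.89) and 1.18 (0.65 to 2.20). The first was 3.47 after thinning and 3.34 by a marker gate. Within Cma1-led cells the KO ratios were 1.03 for Cx3cr1, 1.04 for Itgam and 0.71 for S1pr5, with intervals that included 1.

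The T-box factors differed less between the libraries. Tbx21 was 97.9, 122, 99.2 and 93.6 CPM (74, 94, 51 and 59 UMIs), and all 4 intervals overlapped. Eomes was 236 CPM in WT IgG (202 to 273, 178 UMIs), 195 in WT anti-PD-1 (165 to 229, 150 UMIs), 181 in KO IgG (146 to 222, 93 UMIs) and 151 in KO anti-PD-1 (122 to 184, 95 UMIs). WT IgG was highest and KO anti-PD-1 lowest, and their intervals did not meet: the ratio of KO anti-PD-1 to WT IgG was 0.64 (0.49 to 0.82). The steps between them were smaller, at 0.83 (0.66 to 1.04) for the antibody in WT tumours and 0.77 (0.59 to 0.99) for KO against WT tumours under IgG. In cells without another type's marker Eomes was 214, 214, 200 and 138 CPM.

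**Figure D2:**
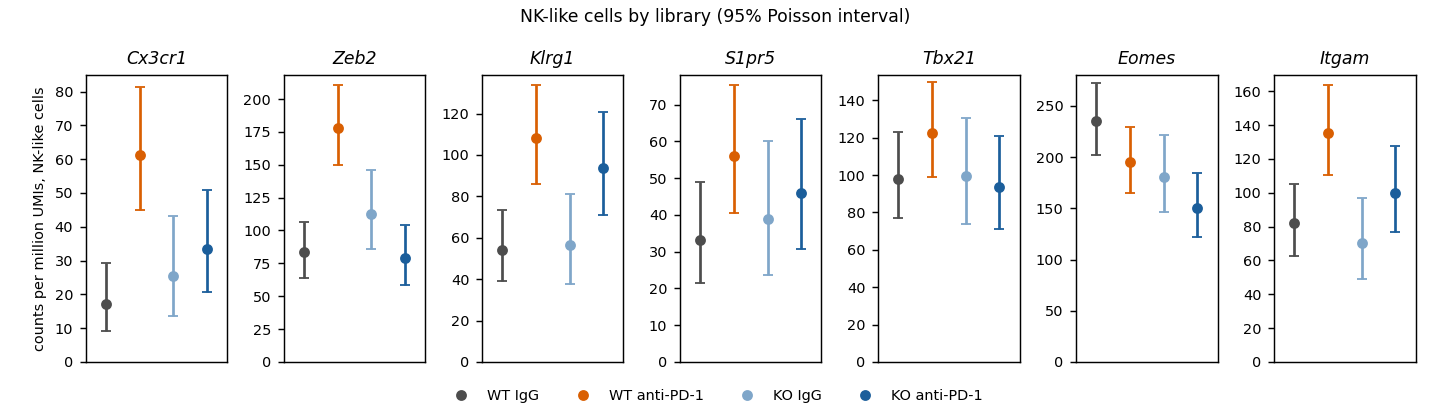
Level of each gene in NK-like cells (CPM, linear axes from 0) in the 4 libraries, with exact Poisson 95% intervals. WT anti-PD-1 is the highest library for every gene except Eomes, which is highest in WT IgG at 236 CPM.

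Counted by a ratio of 1.5 in either direction, 5 of the 7 members were higher in WT anti-PD-1 than WT IgG (Cx3cr1, Zeb2, Klrg1, S1pr5 and Itgam), where 8.66% of the 6386 genes tested in NK-like cells were. Nothing is read from this count, because the set was drawn up with this comparison known. None was lower, against 8.21% of the genes, and the median log2 ratio was 0.76 for the members and 0.02 for all genes. With KO tumours 1 of 7, Klrg1, was higher (8.59% of genes) and none was lower (15.3%). The median log2 ratio was then 0.24, against -0.06 for all genes. The difference between the 2 antibody effects was not tested.

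Under anti-PD-1, 2 of 7 members, Cx3cr1 and Zeb2, were lower in the KO than in the WT library (14.6% of 6120 genes), and none was higher (8.84%). The Cx3cr1 ratio was 0.54 (0.31 to 0.93). In cells without another type's marker 5 of 7 were lower, where 16.1% of 4836 genes were, and none was higher (10%), with Tbx21 (0.61, 0.39 to 0.94), Eomes (0.65, 0.46 to 0.90) and Itgam (0.64, 0.43 to 0.95) added to Cx3cr1 (0.65, 0.30 to 1.33) and Zeb2 (0.39, 0.26 to 0.59). Under IgG no member passed 1.5 between KO and WT tumours, where 10.2% of genes were higher and 8.52% lower. Against WT IgG, KO anti-PD-1 had 2 members higher, Cx3cr1 and Klrg1 (9.45% of genes), and 1 lower, Eomes (13.9%). These comparisons share libraries with each other. The set was drawn up with the Cx3cr1 levels of WT anti-PD-1 and WT IgG known, so nothing is read from counts against either library.

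Cx3cr1 and Zeb2 were also lower in KO than WT anti-PD-1 in myeloid cells, where KO anti-PD-1 lay below the IgG libraries too. In NK-like cells the order was different for Cx3cr1, which in KO anti-PD-1 was 1.94 times WT IgG and 1.32 times KO IgG. Zeb2 in KO anti-PD-1 was 0.95 and 0.70 times these libraries. It was thus lowest there too, but with an interval that overlapped those of both IgG libraries. In monocytes Cx3cr1 was 138, 126, 80.5 and 37.1 CPM, where 66 UMIs gave the last an interval of 28.7 to 47.2, and Zeb2 was 348, 314, 316 and 207 CPM. In macrophages Cx3cr1 was 75.4, 52.7, 62.2 and 34.6 CPM and Zeb2 258, 276, 264 and 166 CPM. KO anti-PD-1 was the lowest library for both genes in both classes, and its intervals met none of the others. Itgam, also a myeloid gene, was 251, 239, 289.5 and 224 CPM in monocytes, where the KO anti-PD-1 interval overlapped those of the WT libraries.

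Shares of cells ordered the libraries as the Cx3cr1 levels did. A Cx3cr1 UMI was held by 3.83%, 10.4%, 4.15% and 5.62% of NK-like cells, at median depths of 2299, 2213, 1501 and 1454.5 UMIs. After each cell was thinned to 1000 UMIs the NK-like shares were 1.46%, 4.95%, 2.11% and 2.97%. For Zeb2 the shares were 19.2%, 31.5%, 15.2% and 12.6%, and 10.6%, 17.8%, 12.2% and 8.25% after thinning. Cells with UMIs of at least 3 of the 7 genes after thinning made up 3.28% of NK-like cells in WT IgG, 8.58% in WT anti-PD-1 and 4.22% in KO IgG, and were 10 of 303 in KO anti-PD-1. In the B cell class none did, and in the CD8 T-like class 2 of the 1081 thinned cells did.

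**Figure D3:**
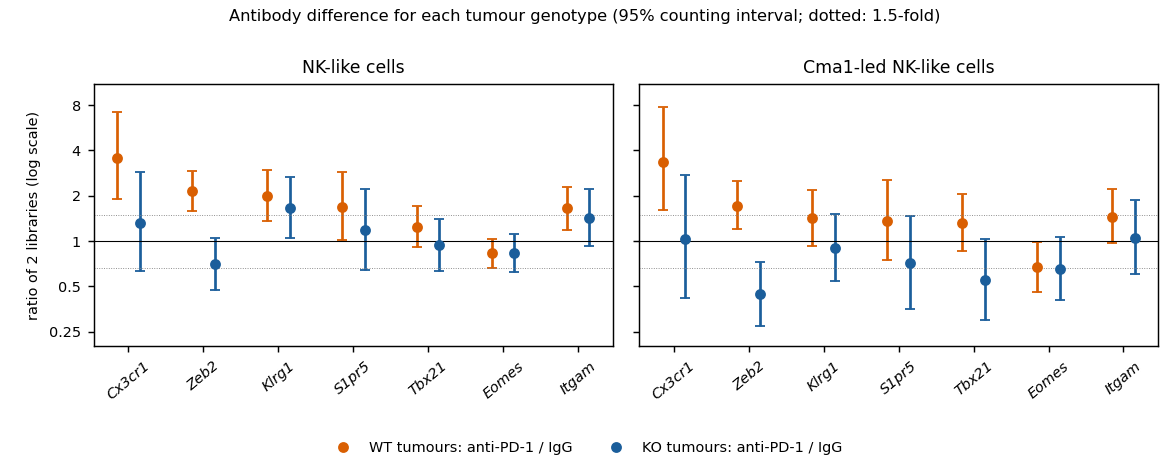
Ratio of the anti-PD-1 to the IgG library for each gene (log axis, exact 95% counting intervals), in all NK-like cells on the left and in the Cma1-led sub-cluster on the right; orange points are WT tumours and blue points KO tumours. In the Cma1-led cells Zeb2 lies above 1 with WT tumours (1.72) and below 1 with KO tumours (0.45).

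The CD8 T-like class (270, 723, 98 and 268 cells) read Cx3cr1 at nearly 1 level in all libraries. It was 54.4 CPM in WT IgG (37.2 to 76.8, 32 UMIs), 61.1 in WT anti-PD-1 (48.9 to 75.4, 86 UMIs), 64.4 in KO IgG (29.5 to 122, 9 UMIs) and 56.5 in KO anti-PD-1 (36.2 to 84.1, 24 UMIs). All 4 intervals overlapped, and the ratio of WT anti-PD-1 to WT IgG was 1.12 (0.74 to 1.74). When CD8 T cells were instead gated on Cd8a or Cd8b1 UMIs without Cd4, it was 1.78. Zeb2 was 44.2, 61.1, 64.4 and 42.4 CPM (26, 86, 9 and 18 UMIs), with a ratio of 1.38 (0.88 to 2.23) in WT tumours, which was 3.10 after thinning. No member of the 5 with at least 20 UMIs passed 1.5 there, where 10.2% of genes were higher and 7.46% lower.

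Eomes in the CD8 T-like class had its lowest level in 1 library. It was 68.0, 72.4, 85.9 and 40.03 CPM (40, 102, 12 and 17 UMIs), lowest in KO anti-PD-1. Under anti-PD-1 it was 0.55 times as high with KO as with WT tumours (0.31 to 0.93), 1 of 4 members past 1.5 where 15.4% of genes were lower. None was higher (11.3%). By the Cd8a or Cd8b1 gate that ratio was 0.95. With KO tumours, anti-PD-1 against IgG, Tbx21 was the 1 of 4 members higher (3.29, 0.80 to 29.0, where 13.4% of genes were higher). Zeb2 (0.66) and Eomes (0.47) were lower past 1.5, where 17.6% of genes were, but both intervals included 1. By the Cd8a or Cd8b1 gate the Zeb2 ratio was 1.47 and the Eomes ratio 1.02. Tbx21 was 35.7, 34.1, 14.3 and 47.1 CPM, from 21, 48, 2 and 20 UMIs, and S1pr5 was read as 3 UMIs, all in KO anti-PD-1.

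Among CD4 T-like cells the members were read in the Penk-led class (111, 133, 48 and 138 cells). Tbx21 was 10.5 CPM in WT IgG (4 UMIs), 56.3 in WT anti-PD-1 (19 UMIs), 6.45 in KO IgG (1 UMI) and 46.3 in KO anti-PD-1 (13 UMIs). Both anti-PD-1 libraries were above both IgG libraries, and the WT ratio was 5.36 (1.78 to 21.7). Zeb2 was 55.1, 94.8, 45.1 and 85.5 CPM (21, 32, 7 and 24 UMIs), in the same order of libraries, with ratios of 1.72 (0.96 to 3.14) and 1.89 (0.79 to 5.20). In WT tumours 2 of the 3 members with enough UMIs were past 1.5, where 15% of genes were higher, and none was lower (7.89%). In KO tumours Zeb2 was 1 of 2 members higher (19.1%) and Eomes, with 13 and 11 UMIs, was lower (12.2%). Klrg1 in regulatory T-like cells was 184 CPM in WT IgG (132 to 251, 40 UMIs), 104 in WT anti-PD-1 (65.4 to 158, 22 UMIs), 235 in KO IgG (146 to 359, 21 UMIs) and 162 in KO anti-PD-1 (103 to 240, 24 UMIs). Both IgG libraries were above both anti-PD-1 libraries, the reverse of the NK-like order. The ratio was 0.57 (0.32 to 0.97) with WT tumours, where 8.79% of genes were lower past 1.5 and 15.2% higher. With KO tumours it was 0.69 (0.37 to 1.30), short of 1.5, where 16% of genes were lower and 13.9% higher.

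NK-like cells were clustered again, with the 7 genes left out, and 3 sub-clusters came out. They are named by a leading gene, Cma1 (mast cell chymase, also a product of mature NK cells), Tcf7 (a factor of precursor and memory lymphocytes) and Gzmc (a granzyme). The values between sub-clusters are a description, since genes correlated with the members shaped the clusters. Zeb2 was 273 CPM in the Cma1-led, 55.1 in the Tcf7-led and 25.9 in the Gzmc-led sub-cluster over the 4 libraries together. Cx3cr1 was 94.1, 7.08 and 13.8 CPM in that order, from 77, 9 and 8 UMIs. Of the 94 Cx3cr1 UMIs in NK-like cells, 77 were in the Cma1-led cells.

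Klrg1 was 220, 18.1 and 15.5 CPM, S1pr5 was 110, 20.5 and 1.72 CPM, and Itgam was 216, 63.0 and 13.8 CPM in the same order. Tbx21 spanned less, at 181, 67.7 and 75.8 CPM. Eomes was 233, 224 and 68.9 CPM, near the same level in the Cma1-led and Tcf7-led cells and lowest in the Gzmc-led cells. In all 4 libraries 6 of the members were higher in Cma1-led than Tcf7-led cells, and Eomes was higher in 3 of 4. For scale, 11.3% of 7196 genes were at least 1.5 times higher in Cma1-led than Tcf7-led cells over all libraries, and 12.6% lower. Gzmc-led cells had low S1pr5 and Itgam, with 1 and 8 UMIs in 193 cells.

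**Figure D4:**
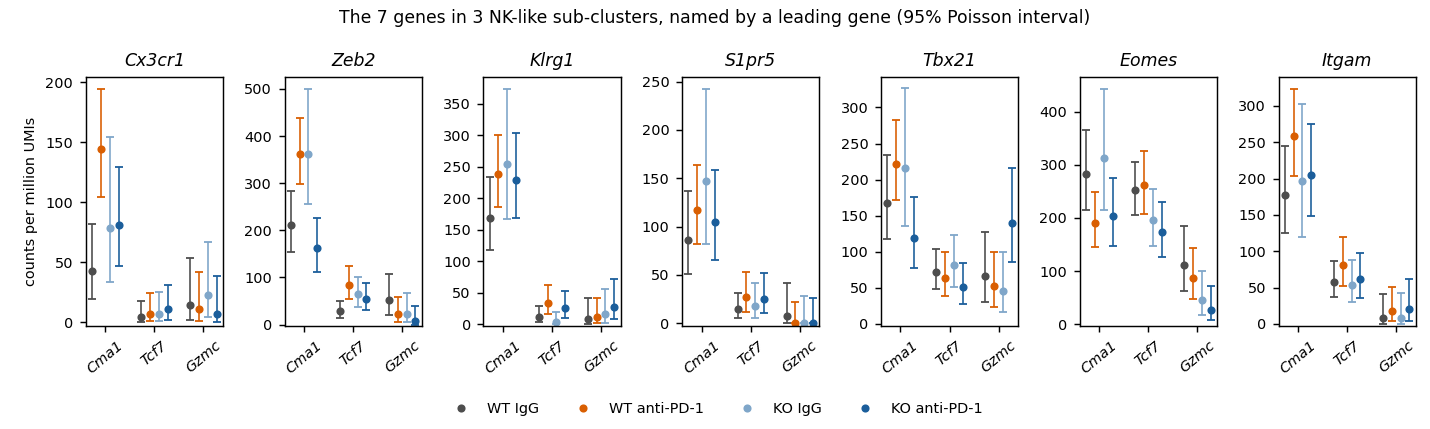
Level of each gene in the 3 NK-like sub-clusters (CPM, linear axes, exact Poisson 95% intervals), with the 4 libraries side by side in each. Of the genes other than Eomes, each stands highest in the Cma1-led cells of every library, except Tbx21 in KO anti-PD-1, which is 140 CPM in Gzmc-led and 119 CPM in Cma1-led cells. In the Cma1-led cells Zeb2 is 363 CPM in WT anti-PD-1 and KO IgG and 162 CPM in KO anti-PD-1.

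Inside the Cma1-led cells (99, 146, 77 and 154 cells) Zeb2 still differed between libraries. It was 211 CPM in WT IgG (44 UMIs), 363 in WT anti-PD-1 (108 UMIs), 363 in KO IgG (37 UMIs) and 162 in KO anti-PD-1 (34 UMIs). WT anti-PD-1 and KO IgG were high, and WT IgG and KO anti-PD-1 were low. The antibody ratio was 1.72 (1.20 to 2.50) with WT tumours and 0.45 (0.27 to 0.73) with KO tumours. KO IgG was 1.71 times WT IgG (1.08 to 2.72), and KO anti-PD-1 was 0.45 times WT anti-PD-1 (0.29 to 0.66). Cx3cr1 was 43.3, 144, 78.4 and 80.9 CPM (9, 43, 8 and 17 UMIs), with ratios of 3.34 (1.61 to 7.79) and 1.03 (0.42 to 2.76). Without cells holding another type's marker the WT ratio of Cx3cr1 was 1.73 (0.73 to 4.54).

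For the other members in Cma1-led cells the antibody ratios of KO tumours had intervals that included 1. Klrg1 was 168, 239, 255 and 228 CPM, with a KO ratio of 0.90 (0.545 to 1.504). Tbx21 was 168, 222, 216 and 119 CPM, with a KO ratio of 0.55 (0.298 to 1.03), and Eomes had one of 0.65 (0.40 to 1.06). Tbx21 in KO anti-PD-1 was 0.54 times WT anti-PD-1 (0.32 to 0.86). In WT tumours 2 of 7 members were past 1.5, Cx3cr1 and Zeb2, where 11.4% of 3214 genes were higher and 10.3% lower. As for the whole class, nothing is read from this count, because the set was drawn up with this comparison known. In KO tumours 3 of 7 were lower past 1.5, Zeb2, Tbx21 and Eomes, where 16.4% of 2130 genes were, and none was higher (11.3%). Under anti-PD-1, 3 of 7 were lower with KO tumours (Cx3cr1, Zeb2 and Tbx21, against 15.9% of genes) and none higher (10.5%). That count is taken against a library whose Cx3cr1 level was known when the set was drawn up, and nothing is read from it. Erythroid genes stood apart in 1 library: the sum of Hbb-bs, Hba-a1 and Hba-a2 in Cma1-led cells was 0, 20.2, 0 and 547 CPM, and epithelial markers summed to 149, 259, 147 and 400 CPM. Without cells holding an erythroid or Sftpc UMI the Zeb2 ratios were 1.75 and 0.44.

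Outside the Cma1-led cells few members had enough UMIs. Zeb2 in Tcf7-led cells was 29.0, 83.8, 63.9 and 54.1 CPM (12, 25, 18 and 15 UMIs), lowest in WT IgG. Its ratio of WT anti-PD-1 to WT IgG was 2.89 (1.40 to 6.31), 1 of 4 members past 1.5 where 10.3% of genes were higher and 9.46% lower. Nothing is read from this count either. Tbx21 in Gzmc-led cells was 67.0, 52.2, 46.1 and 140 CPM (9, 9, 6 and 20 UMIs). KO anti-PD-1 stood apart there, 3.04 times KO IgG (1.18 to 9.24), where 11.5% of genes were higher past 1.5 and 14.4% lower.

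Within single cells the members were read together to different degrees. NK-like cells of the 4 libraries were pooled and thinned to 1000 UMIs for this description. Pooled shares do not separate reading in the same cell from differences between libraries, and their intervals do not cover those differences. Of 33 cells with a Cx3cr1 UMI 27.3% also held Zeb2 (13.3% to 45.5%), against 11.8% (9.95% to 13.9%) of 1084 cells without. Itgam was held by 30.3% against 9.23%, and Klrg1 by 18.2% against 7.56%. Eomes went the other way, in 1 of 33 cells (3.03%, 0.0767% to 15.8%) against 19.7% (17.4% to 22.2%). Before thinning Eomes was held by 13 of 76 Cx3cr1 cells (17.1%, 9.43% to 27.5%) and 29.7% of the others, at median depths of 2013.5 and 1846 UMIs. After thinning, 29 of the 33 Cx3cr1 cells were Cma1-led, and 15 of these 29 came from WT anti-PD-1. Inside the Cma1-led cells the Zeb2 shares were 27.6% and 23.9% and the Eomes shares 3.45% and 26.1%. The Klrg1 shares there were 20.7% and 17.5%, and the Itgam shares 34.5% and 17.3%.

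**Figure D5:**
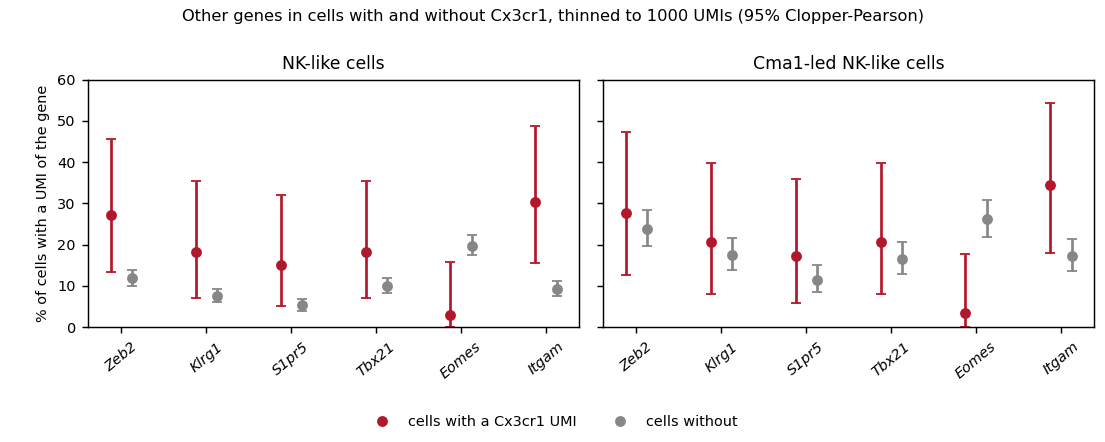
Percentage of cells with a UMI of each other gene among cells with and without a Cx3cr1 UMI, after thinning to 1000 UMIs (linear axis, Clopper-Pearson 95% intervals), in all NK-like cells and in the Cma1-led sub-cluster. Eomes alone is read less often beside Cx3cr1, in 3.03% against 19.7% of NK-like cells.

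Genes fixed in lists around the members were read in NK-like cells by the same ratio of 1.5. Their counts stand beside shares over all genes of 8.66% higher and 8.21% lower for the antibody with WT tumours, and 8.59% higher and 15.3% lower with KO tumours. Of 15 measured mature effector partners, 3 were higher in WT anti-PD-1 than WT IgG (Gzma, Cma1 and Fgl2) and none lower, with a median log2 ratio of 0.30. In KO tumours 5 of 15 were higher with the antibody (Gzma, Gzmb, Prf1, Cma1 and Ly6c2) and none lower, with a median of 0.34. Gzma, granzyme A, was 7863 CPM in WT IgG, 11978 in WT anti-PD-1, 6751 in KO IgG and 11612 in KO anti-PD-1. Its ratios were 1.52 (1.47 to 1.57) and 1.72 (1.65 to 1.79). Gzmb, granzyme B, was 574, 798, 428 and 728 CPM, with ratios of 1.39 (1.23 to 1.57) and 1.70 (1.44 to 2.01). Under IgG, Prf1, Cma1 and Ly6c2 were lower with KO than WT tumours, a comparison in which 8.52% of all genes were lower past 1.5. Gzma, Prf1, Cma1 and Ly6c2 are leading genes of the Cma1-led sub-cluster. Its cells were 34.5%, 46.1%, 26.6% and 43.3% of NK-like cells. The part of this makeup in the differences was not tested.

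Of precursor and memory genes, 2 of 14 were lower with the antibody in WT tumours (Tcf7 and Ccr7) and 1 higher (Kit), close to the share over all genes. In KO tumours 5 of 12 were lower (Tcf7, Cd27, Bach2, Xcl1 and Kit) and none higher. The median log2 ratios were -0.17 and -0.47, against 0.02 and -0.06 over all genes. Tcf7 and Ccr2 are leading genes of the Tcf7-led sub-cluster, which made up 51.2%, 37.5%, 57.1% and 41.9% of NK-like cells. Xcl1, a chemokine that draws dendritic cells, was 1690, 1206, 1757 and 1035 CPM, with ratios of 0.71 (0.66 to 0.78) and 0.59 (0.53 to 0.65). Of 14 cytokine input genes 2 were higher in WT tumours (Il12rb2 and Smad3), and in KO tumours 1 was higher (Tgfbr1) and 3 were lower (Il21r, Stat4 and Stat5a). Stat4, which carries the IL-12 signal, was 218, 212, 210 and 132 CPM. It was lowest in KO anti-PD-1, 0.63 times KO IgG (0.46 to 0.84). Of 9 trafficking receptors none passed 1.5 in WT tumours, and Ccr2 was lower in KO tumours (0.61, 0.49 to 0.76). Residency genes had 1 of 8 higher (Cd200r1) and 1 lower (Ahr) in WT tumours and none of 7 either way in KO tumours.

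Ligands of the receptors were read outside the lymphocytes. Cdh1, E-cadherin and a ligand of KLRG1, was 136 to 176 CPM in the epithelial or tumour class over the 4 libraries, 122 to 193 CPM in plasmacytoid dendritic cells and 65.8 to 95.7 CPM in conventional dendritic cells. Cdh2, N-cadherin, was 25.8 to 39.0 CPM in the epithelial or tumour class. Cx3cl1, the fractalkine that binds CX3CR1, was 14.1 to 23.0 CPM there. It was highest in WT IgG (23.0, 17.0 to 30.5), and all 4 intervals overlapped. C3, the complement source of a CD11b ligand, was 85.4 to 168 CPM in monocytes and 24.5 to 173 CPM in the epithelial or tumour class, and Icam1, another ligand of CD11b, was 89.0 to 160 CPM in neutrophils.

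Across the 7 NK-like and T cell classes in 4 libraries, 28 points, the level of Cx3cr1 followed most closely that of Ctsd (Pearson r 0.87 on log2(CPM + 10)), Tnfsf10 (0.86), Ier5l (0.84), Litaf (0.84) and 2900026A02Rik (0.83), among 7544 genes. Zeb2 followed Sytl3 (0.88), the chemokines Ccl3 (0.85) and Ccl4 (0.83), Serpine2 (0.82) and Klri2 (0.81). Points of 1 library share its depth and points of 1 class its cells, so no p is given. Among the members the closest pair was S1pr5 and Itgam (0.89), Cx3cr1 and Zeb2 stood at 0.68, and Klrg1 and Eomes were the least alike (-0.04).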

How the data were processed

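Values were counts of unique molecular identifiers (UMIs), deposited by the authors as whole numbers per gene and cell and per the file headers output of Cell Ranger 3.0.0. Besides that tool, bcl2fastq and the human build hg19 stand in the submitters' processing notes, while the gene identifiers are of mouse, so the build is not established and promoter coordinates are those of RefSeq GRCm38.p6. The members and the lists were chosen with earlier results of these data known.

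Cells with under 200 genes, over 10% mitochondrial UMIs or a Scrublet doublet score over 0.25 were left out (scanpy 1.11.5). Cells were clustered by Leiden (igraph 0.11.9) at resolution 1 on 2000 variable genes, 30 components and 15 neighbours, with the 7 members left out of these genes, and NK-like cells again at 0.5. Clusters took a class name from fixed markers. UMIs were summed per class and library. Intervals are 95%: exact Poisson for CPM, exact conditional for ratios (scipy 1.17.1) and Clopper-Pearson for shares. Background percentages count genes with at least 20 UMIs in the compared libraries together whose ratio was at least 1.5 either way. Genes named are the members, those of the fixed lists past 1.5 and up to 4 per list with most UMIs, and the 5 most alike by correlation of log2(CPM + 10). Intervals were tested on simulated Poisson counts, the model they assume, so the test does not show how they hold where UMIs cluster in cells. Alternatives covered cell filters, clustering, scaling (edgeR 4.0.16 TMM factors and median-of-ratios factors), thinning to 1000 UMIs and gates.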

Additional observations from a re-analysis of the deposited data

Results flagged for a closer look

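In the Cma1-led NK-like cells, Zeb2 differed with the antibody in opposite directions in the 2 tumour genotypes: the ratio of the anti-PD-1 to the IgG library was 1.72 (1.20 to 2.50) with WT tumours and 0.446 (0.27 to 0.73) with KO tumours. Each ratio rests on 2 single libraries, and the difference between the 2 ratios was not tested.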

How the results depend on the processing

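No paired analysis was possible because each group is 1 library without a replicate number, and for the same reason no replicate could be left out. Counting error sets the depth limit: with 13 Cx3cr1 UMIs in NK-like cells of an IgG library, differences under about the interval widths given were not detectable. Of 420 alternative values of the NK-like ratios 415 stayed inside the main 95% interval. None of the 11 ratios whose main interval excluded 1 crossed 1. Of the rest 8 did, in 14 values, among them Cx3cr1 of KO against WT tumours under IgG, at 1.47 and, without marker-bearing cells, 0.84. In the CD8 T-like class 15 of 21 ratios crossed 1 under some alternative, and in Cma1-led cells 6 of 34, all with a main interval that included 1. The 5 NK-like values that left the main interval were S1pr5 ratios to WT IgG, at 2.89, 3.47 and 3.01 after thinning and 3.34 and 2.62 by gate. In the CD8 T-like class 6 of 251 left it, and in Cma1-led cells 0 of 102. Each Cma1-led ratio had only 3 alternatives, against 12 for an NK-like ratio, and none of them was a scaling, thinning or gate. The Cx3cr1 ratio of WT anti-PD-1 to WT IgG ranged from 2.10 to 4.30, that of Zeb2 from 1.90 to 2.37, and that of Zeb2 between KO and WT tumours under anti-PD-1 from 0.39 to 0.48. The cause of a change was not tested.

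Members higher past 1.5 in KO anti-PD-1 than KO IgG numbered 2 with a 5% mitochondrial limit, without marker-bearing cells, with TMM factors and after thinning, and 0 by the mean of each cell's CPM. Members lower in KO than WT anti-PD-1 numbered 5 without marker-bearing cells. Thinned shares of NK-like cells were 1.46%, 4.95%, 2.11% and 2.97% for Cx3cr1 and 10.6%, 17.8% and 8.25% for Zeb2 (KO IgG within its interval). At resolution 0.8 the Tcf7-led cells made up 28.2%, 16.7%, 12.8% and 13.8% of NK-like cells in place of 51.2%, 37.5%, 57.1% and 41.9%. The Gzmc-led cells made up 9.06% in WT IgG in place of 14.3%. That resolution gave 7 clusters in place of 3. Clusters led by none of the 3 naming genes held 30.3%, 27.1%, 49.8% and 28.4% of NK-like cells. With at least 50 UMIs, genes past 1.5 in NK-like cells numbered 168 higher and 143 lower for KO against WT under IgG (605 and 505 at 20 UMIs). They were 168 and 133 for the antibody in WT tumours (553 and 524), 142 and 318 in KO tumours (483 and 860), 175 and 335 for KO anti-PD-1 against WT IgG (578 and 852) and 149 and 360 against WT anti-PD-1 (541 and 892). Leaving out cells with erythroid or Sftpc UMIs, and 3 checks in the Cma1-led cells, were chosen after seeing the data.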

Other observations

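Between the Cma1-led and the Tcf7-led NK-like cells 11.3% of genes were at least 1.5 times higher and 12.6% lower, which is a description because these genes entered the clustering. Of 15 mature effector partners 13 were at least 1.5 times higher in Cma1-led cells and none lower, among them Prdm1, Spn, Il18rap and Klf2. Of 14 precursor and memory genes none was higher and 12 were lower, among them Il7r, Ltb and Thy1. The other lists had members on both sides or fewer past that ratio: 2 higher and 4 lower of 15 cytokine inputs, 2 higher and 3 lower of 8 trafficking receptors, and none higher and 3 lower of 6 residency genes.

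S1pr5 had the closest followers of all members across the 28 points: Cma1 (Pearson r 0.97 on the log2 scale), Serpinb9b (0.96), Klrb1b (0.96), Klra8 (0.96) and Ncr1 (0.96). Klrg1 followed Ccr2 most (0.87).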
